A study of Mus musculus with 8 samples.

Results

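The genes described here are 10 brakes on the cell cycle and stress-response genes of mouse liver: the cyclin-dependent kinase (CDK) inhibitors Cdkn1a (p21), Cdkn1b (p27), Cdkn2b (p15) and Cdkn2c (p18), the growth arrest and DNA damage genes Gadd45a, Gadd45b and Gadd45g, the antiproliferative genes Btg1 and Btg2, and Ccng2 (cyclin G2). These members were found as the gene probes whose deposited gene name equals 1 of these symbols, which gave 17 of 41174 probes on the array, for 10 of 28146 gene names. Liver RNA came from pregnant C57BL/6J mice and from their male fetuses. The food-restricted (FR) mothers received 50% of the chow that controls ate from gestation day 10 to 17, control mothers ate freely, and tissue was taken on day 18 from 6 mothers of each diet, with 2 male fetuses per mother. All RNA was pooled within a diet, and each 2-colour array compared 1 FR pool with 1 control pool, then the same pools again with the dyes exchanged. There were 4 pool pairs on 8 arrays: 1 of mothers (pools of 6 animals), 1 of fetuses in pools of 6, and 2 of fetuses in pools of 3, called fetal pairs 1, 2 and 3 below. The mothers and fetal pair 1 lay on slide 1, and fetal pairs 2 and 3 on slide 2. The labels do not say which animals went into which pool. With 6 mothers of each diet and 2 fetuses per mother, some fetal pools must share litters or animals. The fetal pairs are therefore not independent litters, and the p-values measure the spread between these pools.

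CDK inhibitors hold the cell cycle by binding the kinases that drive it: the Cip/Kip proteins p21 and p27 act on several cyclin-CDK complexes, and the INK4 proteins p15 and p18 on the cyclin D kinases CDK4 and CDK6. The 3 Gadd45 proteins are small stress-induced partners of p21, PCNA and the MAP kinase kinase kinase Map3k4, and Gadd45b is known in mouse liver for its induction during regeneration. Btg1 and Btg2 are antiproliferative adaptors of the CCR4-NOT mRNA deadenylase, and cyclin G2 is an unconventional cyclin that is high in cells leaving the cycle and is a known FoxO target.

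The promoters of Gadd45a, Gadd45b, Gadd45g and Cdkn1a are given first, on the gene's strand. Each is the 250 bases before the transcription start in RefSeq's GRCm38.p6 annotation. Capitals mark matches, on either strand, to CCAAT (the CCAAT box), TATAAA (the TATA box), CACGTG (an E-box) and CATG followed by 6 bases of any kind and CATG again (the paired core of a p53 site). Gadd45a lies at chr6:67037408-67037657 (minus strand), Gadd45b at chr10:80929841-80930090 (plus), Gadd45g at chr13:51846425-51846674 (plus) and the upstream start of Cdkn1a at chr17:29090729-29090978 (plus).
Gadd45a: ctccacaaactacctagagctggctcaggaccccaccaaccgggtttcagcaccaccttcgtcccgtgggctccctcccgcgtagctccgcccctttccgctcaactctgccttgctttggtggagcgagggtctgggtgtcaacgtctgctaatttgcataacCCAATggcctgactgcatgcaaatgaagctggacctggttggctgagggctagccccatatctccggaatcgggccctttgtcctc
Gadd45b: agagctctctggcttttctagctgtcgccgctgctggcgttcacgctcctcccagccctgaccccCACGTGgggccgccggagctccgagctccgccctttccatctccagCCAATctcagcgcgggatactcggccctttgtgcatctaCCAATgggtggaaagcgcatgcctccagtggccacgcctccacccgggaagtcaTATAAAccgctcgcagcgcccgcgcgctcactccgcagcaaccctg
Gadd45g: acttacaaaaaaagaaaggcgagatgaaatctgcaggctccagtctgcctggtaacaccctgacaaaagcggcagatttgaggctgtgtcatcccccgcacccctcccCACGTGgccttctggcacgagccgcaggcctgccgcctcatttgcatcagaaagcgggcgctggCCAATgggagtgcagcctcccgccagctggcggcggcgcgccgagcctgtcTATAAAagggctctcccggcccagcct
Cdkn1a: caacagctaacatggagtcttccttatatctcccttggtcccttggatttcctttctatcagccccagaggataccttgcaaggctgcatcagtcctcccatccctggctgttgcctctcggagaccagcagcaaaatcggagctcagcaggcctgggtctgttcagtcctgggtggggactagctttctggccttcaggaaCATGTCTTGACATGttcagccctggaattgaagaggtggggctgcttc

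Gadd45b and Gadd45g each held an E-box, a TATA box and at least 1 CCAAT box in this window, and Gadd45a held a CCAAT box only. The TATA box stood 46 to 41 bases before the start in Gadd45b and 27 to 22 bases before it in Gadd45g. Of 32851 promoters of the same length, 6.02% held CACGTG, 12.4% TATAAA and 33.8% CCAAT. The p53 paired core was found at the upstream Cdkn1a start alone among the members, 48 to 35 bases before it, and in 0.49% of all promoters. The downstream Cdkn1a start (chr17:29093519-29093768, plus), not printed here, held none of the motifs searched. Which start the measured Cdkn1a RNA came from was not tested. Of the other motifs searched, also on both strands, TGACGTCA (cAMP response element, 1.55% of promoters) was found in Btg2 and Cdkn2b, GTAAACA (FoxO, 3.17%) in Btg1, and the glucocorticoid response element (GNACA, 3 bases of any kind and TGTNC, with N for any base, 0.387%) in no member. These matches describe letters in the window and were not tested as binding sites.

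In maternal liver, with 1 pool pair and hence no test, Gadd45g, Gadd45b and Cdkn2c were at least 1.5-fold higher with FR on both arrays and Gadd45a was at least 1.5-fold lower, which is 4 of 10 members against 6.88% of all genes (3.00% higher and 3.88% lower). The maternal median log2 ratio of FR over control was -0.11 over the 10 members and 0.00 over all genes. In fetal liver, 6 of the 9 members that could be tested rose with FR and 0 fell. The test was limma on 3 pool pairs at an adjusted p below 0.05. Over all genes tested the share called at that threshold was 25.6%, with 11.4% higher and 14.2% lower. At an unadjusted p below 0.05 by limma the member counts were also 6 and 0, and 12400 of all 30812 probes passed. Gadd45b, Gadd45a, Ccng2, Btg1, Cdkn1a and Cdkn2c rose by 1.88-, 1.51-, 1.36-, 1.36-, 1.30- and 1.26-fold, while Cdkn1b, Gadd45g and Btg2 did not pass. The fetal median was 0.38 over the 9 members and 0.01 over all genes. The difference between mother and fetus passed the test for Gadd45g, Gadd45a and Cdkn1a, 3 of 9 members, against 3.67% of all genes (1.78% higher and 1.90% lower in mothers).

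**Figure D1:**
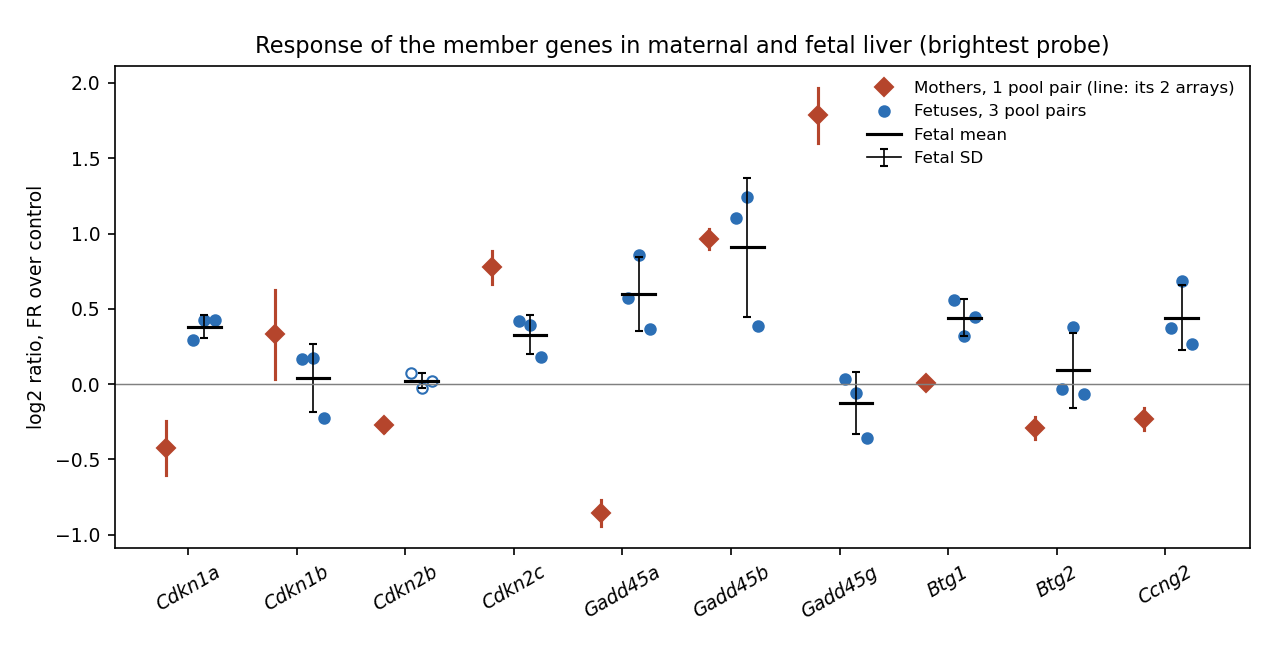
Log2 ratio of FR over control for the brightest probe of each member, with the maternal pool pair as a red diamond (line: its 2 arrays), the 3 fetal pool pairs as blue circles in the order 1, 2 and 3, and the fetal mean with its SD in black. Open circles mark Cdkn2b, which did not pass the fetal filter. Gadd45a and Cdkn1a lie below 0 in mothers and above it in all 3 fetal pairs, and Gadd45g is high in mothers alone.

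Markers of several cell types moved with diet as well. Of all genes, 3.00% were called higher and 3.88% lower in mothers, and 11.4% higher and 14.2% lower in the fetus. Erythroid markers averaged a log2 level of 9.77 in FR and 10.04 in control mothers (1 of 5 measured higher and 3 lower). Kupffer cell and macrophage markers averaged 11.61 and 12.13 in FR and control mothers (0 of 6 higher and 2 lower). Marco, on that list, went the other way with a maternal log2 ratio of 0.83, short of 1.5-fold on 1 array. Stellate and mesenchymal markers averaged 9.97 and 10.52 in FR and control mothers (0 of 5 higher and 2 lower). In the fetus, 8 B lineage markers averaged 9.41 to 10.02 in FR pools and 10.58 to 10.74 in control pools, and 7 of the 8 fell. The 9 granulocyte markers averaged 14.10 to 14.21 in FR and 14.71 to 14.74 in control pools, and 7 of the 9 fell. The 5 T and NK cell markers averaged 8.30 to 8.66 in FR and 8.65 to 8.88 in control pools, and 3 of the 5 fell. In the fetus, erythroid markers were at 14.67 to 14.99 in FR and 14.67 to 14.85 in control pools (0 of 7 higher and 1 lower). The 6 hepatocyte markers were at 14.88 to 15.23 in FR and 14.89 to 15.01 in control pools of the fetus, and they moved both ways: Tat and Cps1 rose by 2.05 and 0.67, and Ttr, Fgb and Alb fell by 0.97, 0.66 and 0.45 on the log2 scale. In pooled tissue, fewer cells of a type and less RNA per cell cannot be told apart, and the part of these markers in the members' values was not tested. The female-specific RNA Xist was at 12.95 and 13.00 in the FR and control mothers and at 6.23 to 6.54 in the fetal pools, as the labelled sexes require, and Afp, a fetal liver gene, was at 8.66 and 7.86 in FR and control mothers and 16.56 to 17.13 in fetuses.

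Gadd45a went opposite ways in mother and fetus. Its probe (mm9 chr6:66985376-66985435) had a log2 level of 9.03 in the FR mothers and 9.88 in the control mothers, and the log2 ratio was -0.94 and -0.77 on the 2 arrays, a mean of -0.86. In the fetus the levels were 12.83, 13.03 and 12.54 in the FR pools and 12.26, 12.18 and 12.17 in the control pools. All 3 FR fetal pools lay above all 3 control pools, whereas the FR mothers lay below their controls. The fetal log2 ratio was 0.57, 0.86 and 0.37 in pairs 1, 2 and 3, with a mean of 0.60 ± 0.25 (SD, n = 3; limma adjusted p = 0.0155), and all 6 fetal arrays had the same sign. The maternal minus fetal difference was -1.46 (SE 0.20, limma adjusted p = 0.0322), a fit that takes the spread of the fetal pairs for the mothers too. On slide 1 alone, which holds 1 pool pair of each, it was -1.43. Between mothers and fetuses on slide 1, with 1 pool each, the log2 level differed by -3.81 between FR pools and -2.37 between control pools.

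Gadd45g, which signals with Gadd45a and Gadd45b through Map3k4, was the member with the highest maternal ratio. Its level (probe at mm9 chr13:51943733-51943792) was 13.41 in the FR mothers, against 11.62 in the control mothers. The ratio was 1.60 and 1.97 on the 2 arrays, a mean of 1.79 or 3.45-fold. FR fetal pools had levels of 11.89, 11.96 and 11.90, and control fetal pools 11.86, 12.02 and 12.26, so the fetal groups overlapped. Their log2 ratios were 0.03, -0.06 and -0.36, with a mean of -0.13 ± 0.21 (SD, n = 3; limma adjusted p = 0.324). The maternal minus fetal difference was 1.91 (SE 0.17, limma adjusted p = 0.0147). The scanner marked 3 of the probe's 8 spots as non-uniform, and without such spots Gadd45g has no value in either comparison.

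Gadd45b was higher with FR in both mother and fetus. For its brighter probe (mm9 chr10:80394367-80394426) the level was 10.71 in FR and 9.74 in control mothers, and the maternal arrays gave ratios of 1.03 and 0.90. In the fetus the levels were 10.51, 11.18 and 10.15 in FR pools and 9.41, 9.94 and 9.77 in control pools, which did not overlap. The fetal ratios were 1.10, 1.24 and 0.38, with a mean of 0.91 ± 0.46 (SD, n = 3; limma adjusted p = 0.0213). Fetal pair 3 was the lowest of the fetal pairs by both Gadd45b probes. The dimmer probe (mm9 chr10:80394890-80394949) gave larger ratios: 1.38 and 1.20 on the maternal arrays, and 1.81, 2.18 and 0.85 in the fetal pairs, with a mean of 1.61 ± 0.69 (SD, n = 3; limma adjusted p = 0.0138). Mother minus fetus was 0.05 by the brighter probe and -0.32 by the dimmer one, with limma adjusted p = 0.955 and 0.786. The SEs of these differences were 0.34 and 0.50 on the log2 scale, so a moderate difference would not have been detectable. Neither Gadd45b probe had a spot marked as non-uniform or as an outlier on any array.

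**Figure D2:**
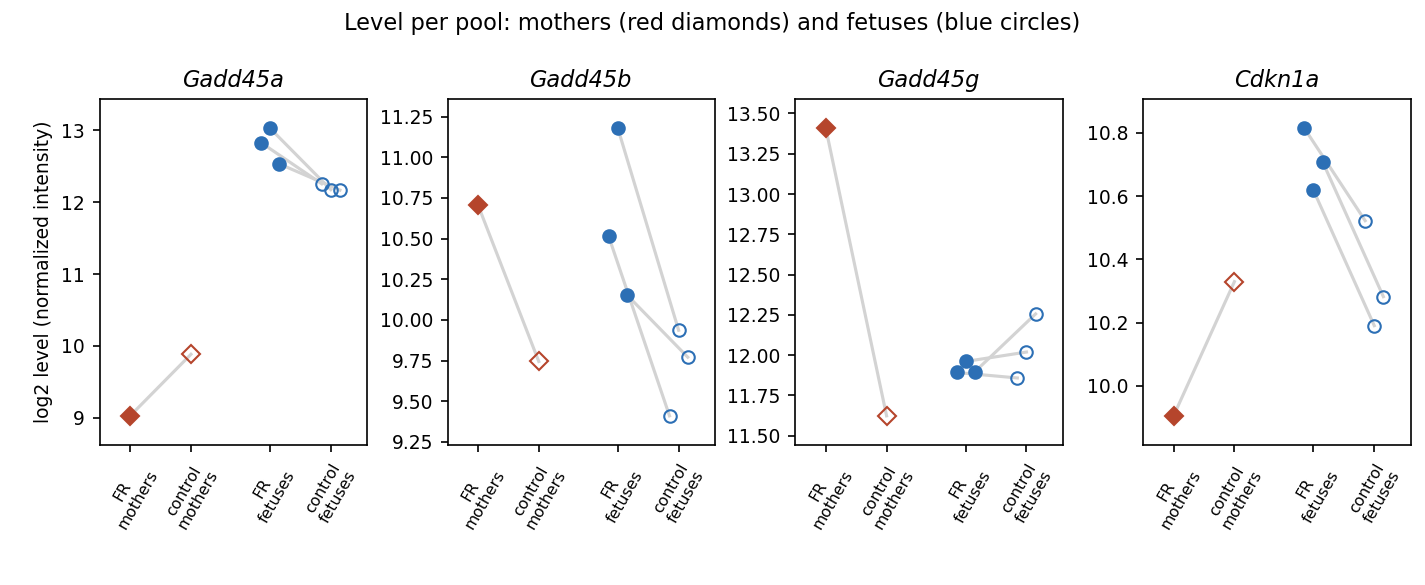
Normalized log2 level of Gadd45a, Gadd45b, Gadd45g and Cdkn1a in each pool, with mothers as red diamonds and fetuses as blue circles, filled for FR and open for control, and grey lines joining the FR and control pools that shared arrays. Each gene has its own vertical scale, and the slopes of Gadd45a and Cdkn1a run opposite ways in mothers and fetuses.

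Among the Cip/Kip inhibitors, Cdkn1a rose in the fetus by a small and even amount and was lower with FR in the mother. Its probe (mm9 chr17:29237377-29237436) stood at 9.91 in the FR mothers and 10.33 in the control mothers, and the maternal arrays gave ratios of -0.25 and -0.60. The first of these is short of 1.5-fold, so Cdkn1a is not counted among the maternal changes. In the fetus the levels were 10.81, 10.62 and 10.71 in FR pools and 10.52, 10.19 and 10.28 in control pools, which did not overlap. The fetal ratios were 0.29, 0.43 and 0.43, with a mean of 0.38 ± 0.08 (SD, n = 3; limma adjusted p = 0.0104) and the same sign on all 6 arrays. The maternal minus fetal difference of -0.81 passed the test (SE 0.11, limma adjusted p = 0.0301). The probe was spotted 10 times on each array, and the SD of the scanner's own log2 ratio over those spots was 0.02 to 0.14. On the array of fetal pair 1 with FR in Cy3, those spots ran from -0.08 to 0.24. Of the probe's 80 spots over all arrays, 13 were population outliers, which were left out, and 15 were marked as non-uniform.

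Cdkn1b, which restrains cyclin E-CDK2 in resting cells, showed no change that passed the test. Its brightest probe (mm9 chr6:134875215-134875274) gave 0.63 and 0.03 on the 2 maternal arrays, so its maternal mean rests on 1 dye orientation, and the other probes averaged 0.09 and -0.01 in mothers. In the fetus the brightest probe gave 0.17, 0.18 and -0.22, with a mean of 0.04 ± 0.23 (SD, n = 3; limma adjusted p = 0.781). The other probes averaged -0.12 and -0.20 in the fetus (limma adjusted p = 0.313 and 0.104), so the 3 probes disagreed in sign.

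Of the INK4 inhibitors, Cdkn2c was higher in mother and fetus by both of its overlapping probes. The brighter probe (mm9 chr4:109333779-109333838) had a level of 11.08 in FR and 10.30 in control mothers, and the maternal arrays gave ratios of 0.89 and 0.67. In the fetus its levels were 10.95, 11.19 and 10.93 in FR pools and 10.53, 10.80 and 10.76 in control pools, without overlap. The fetal ratios were 0.42, 0.39 and 0.18, with a mean of 0.33 ± 0.13 (SD, n = 3; limma adjusted p = 0.0233). The second probe averaged 0.76 in mothers and 0.51 ± 0.18 in the fetus (SD, n = 3; limma adjusted p = 0.0138). For the brighter probe the difference of mother minus fetus, 0.45 (SE 0.13), had a limma adjusted p of 0.143. Cdkn2b was dim: its probe (mm9 chr4:88952437-88952496) was well above background on 7 of 8 arrays for each diet, missed the fetal filter, and had maternal ratios of -0.32 and -0.22.

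Btg1 stood near 0 in the mother and rose in the fetus. The brighter probe (mm9 chr10:96081915-96081974) had a level of 12.66 in both the FR and the control mothers, and the maternal arrays gave -0.01 and 0.02. In the fetus the levels were 13.85, 13.85 and 13.79 in FR pools and 13.28, 13.53 and 13.35 in control pools, which did not overlap. The fetal ratios were 0.56, 0.32 and 0.44, with a mean of 0.44 ± 0.12 (SD, n = 3; limma adjusted p = 0.0112). The dimmer probe averaged -0.10 in mothers and 0.22 ± 0.08 in the fetus (SD, n = 3; limma adjusted p = 0.0397). Its fetal levels were 9.29 to 10.77 in FR pools and 9.17 to 10.51 in control pools, which overlapped. Mother minus fetus was -0.43 (SE 0.12) and did not pass, with a limma adjusted p of 0.14.

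Btg2, a p53-inducible relative of Btg1, had no call in either liver. Its brightest probe (mm9 chr1:135972094-135972153) gave -0.22 and -0.37 in mothers, and the other probes averaged -0.19 each. In the fetus the brightest probe gave -0.04, 0.38 and -0.07, with a mean of 0.09 ± 0.25 (SD, n = 3; limma adjusted p = 0.541), and the value above 0 came from fetal pair 2 alone. The other probes averaged -0.15 and -0.24 in the fetus (limma adjusted p = 0.218 and 0.0649), so the probes disagreed in sign there. Btg2 levels were lower in maternal liver by each probe: the maternal minus fetal log2 level between control pools of slide 1, with 1 pool each, was -2.20, -1.17 and -1.15.

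Ccng2 rose in the fetus, and its maternal ratios were -0.16 and -0.31, with levels of 10.66 in the FR and 10.89 in the control mothers. Its probe (mm9 chr5:93704874-93704933) was at 11.77, 11.70 and 11.32 in FR fetal pools and 11.40, 11.02 and 11.05 in control fetal pools. The groups overlapped, since the lowest FR pool (pair 3) lay below the highest control pool (pair 1), on different slides. Within pairs the ratios were 0.37, 0.68 and 0.27, with a mean of 0.44 ± 0.22 (SD, n = 3; limma adjusted p = 0.025). The difference of mother minus fetus, -0.67 (SE 0.18), had a limma adjusted p of 0.122.

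**Figure D3:**
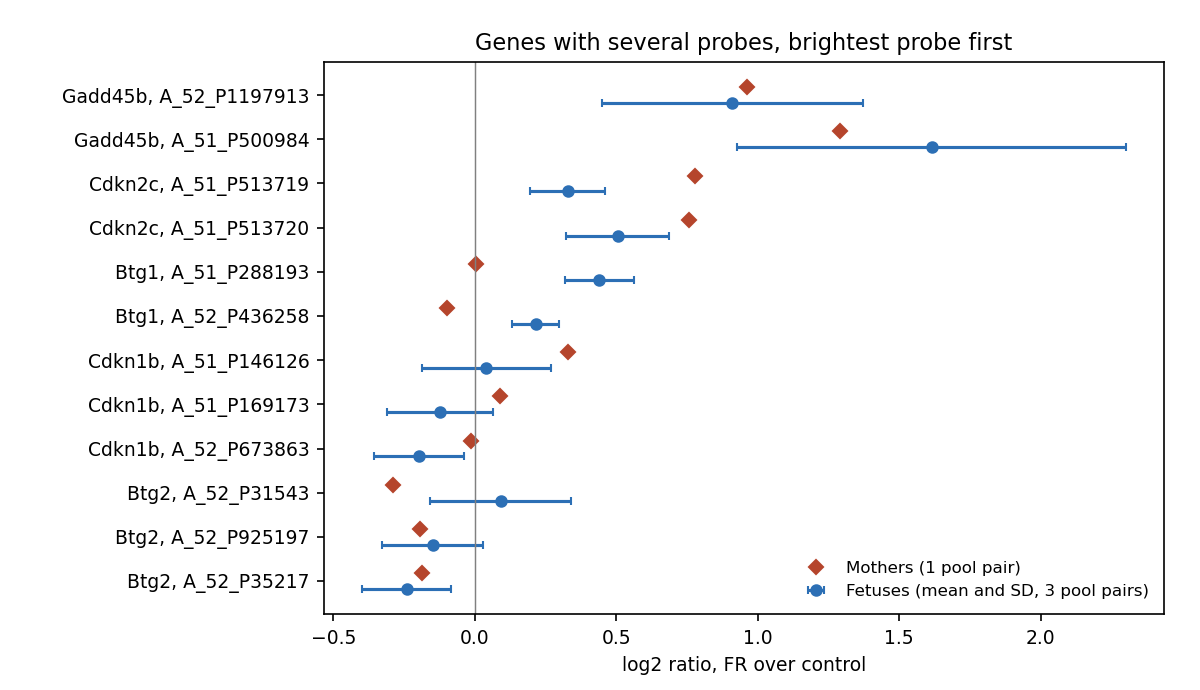
Log2 ratio of FR over control for every probe of the 5 members with several probes, maternal pool pair (red diamonds) above the fetal mean with its SD over 3 pool pairs (blue circles). The probes of Gadd45b, Cdkn2c and Btg1 lie on the same side of 0 in the fetus, and those of Cdkn1b and Btg2 lie on both sides.

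These calls rest on few pools. For the 3 differences between mother and fetus, the limma adjusted p was 0.0955 to 0.14 without the fetal pools of 6 and 0.0634 to 0.124 with log ratios scaled between arrays, with values of -0.83 to -0.85 for Cdkn1a, -1.47 to -1.56 for Gadd45a and 1.97 to 1.99 for Gadd45g. In the fetus 0 of 9 members passed in either setting, where 3.43% and 0% of all probes passed. The limma adjusted p of the 6 genes was 0.0529 to 0.117 and 0.0537 to 0.0989. All 6 stayed above 0 and had an unadjusted p below 0.05 by limma. So did many probes in either direction: 9457 of 31241 and 11048 of 30812 had an unadjusted p below 0.05. Without loess, Gadd45g alone passed for the difference, where 0.997% of all probes passed. Gadd45b was then the only 1 of the 9 members to pass in the fetus, where 14.9% of all probes passed. Without non-uniform spots Cdkn2c, Gadd45a, Gadd45g and Ccng2 had no fetal value.

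**Figure D4:**
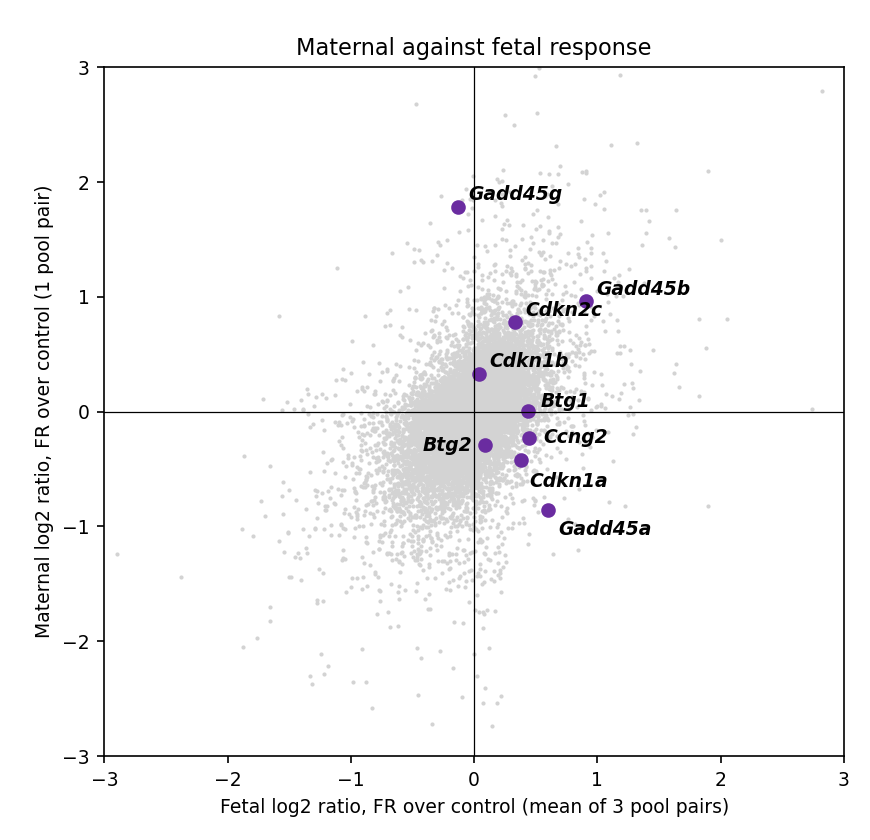
Maternal log2 ratio (vertical, 1 pool pair) against the fetal mean log2 ratio (horizontal, 3 pool pairs) for 18969 genes in grey, with the 9 members tested in purple; 10 grey genes lie outside the axes. Cdkn1a, Ccng2 and Gadd45a sit right of 0 and below it, Gadd45b and Cdkn2c above and right of 0.

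Relatives of the members did not all follow them. For the counts of this list and those below, 6.88% of all genes met the maternal threshold and 25.6% passed in the fetus. Of 10 measured CDK inhibitor, BTG/TOB and pocket protein relatives, 2 were higher and 3 lower in mothers (median log2 ratio 0.27), and 2 rose and 3 fell in the fetus (median 0.10). Cdkn1c (p57), the imprinted Cip/Kip inhibitor of fetal growth, had 0.37 in mothers and fell by 1.07 on the log2 scale in the fetus (SD 0.38, limma adjusted p = 0.0105), where its pool pairs gave -0.86, -0.83 and -1.51. Btg3 and Tob2, antiproliferative relatives of Btg1, were 1.22 and 1.25 higher in mothers and rose by 0.56 and 0.41 in the fetus (limma adjusted p = 0.0153 and 0.0133). Tob1 fell by 0.34 in the fetus (limma adjusted p = 0.0424). Cdkn3, a phosphatase of CDKs that peaks in dividing cells, had -1.60 in mothers and 0.02 in the fetus, a difference of -1.62 (limma adjusted p = 0.0102).

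A share of the genes of cell division, which the inhibitors hold back, was lower with FR in the mother. Of 23 proliferation genes, 0 were higher and 8 lower in mothers (median -0.45), where 3.88% of all genes measured were lower, and the other 15 met neither threshold. In the fetus 1 of the 23 rose and 2 fell (median 0.03), and for 8 the difference was negative and passed the test. Cdc20, the mitotic activator of the anaphase-promoting complex, had -2.54 in mothers and 0.07 in the fetus (difference limma adjusted p = 0.00775). Mki67, the common marker of cycling cells, had -2.31 in mothers and 0.03 in the fetus (difference limma adjusted p = 0.00937), and Birc5 (survivin) had -1.84 and -0.09 in the same order (0.00937). In the fetus Tk1, Top2a and Kif11 were the genes past the threshold, at 0.44, -0.27 and -0.25. Of 14 cyclin, CDK and p27 turnover genes, 1 was higher and 4 were lower in mothers (median -0.22), among them Ccna2 at -1.58, Ccnd1 (cyclin D1) at -1.49 and Ccnd2 at -0.999. In the fetus 1 rose and 1 fell (median 0.07), namely Ccnb1 at 0.41 and Ccnd1 at -0.21.

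Of 20 p53 targets measured in mothers, 1 was higher and 4 were lower (median -0.12). The apoptosis gene Bbc3 (Puma) had -1.31 and Plk2 -1.09, and Sesn1, a stress-inducible inhibitor of mTORC1 signalling, had 1.02. Of 19 tested in the fetus, 5 rose and 1 fell (median 0.01), where 11.4% of all genes tested rose and 14.2% fell. Trp53inp1, Ei24 and Sesn1 rose by 0.66, 0.62 and 0.41 (limma adjusted p = 0.00854, 0.00482 and 0.0327), and the death receptor Fas fell by 0.60 (limma adjusted p = 0.013).

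Of 14 FoxO targets on the array under their names, 2 were higher and 1 lower in mothers (median 0.13), and 6 rose and 3 fell in the fetus (median 0.16). The maternal genes past 1.5-fold on both arrays were the mitophagy gene Bnip3 at 1.26, Sesn1 at 1.02 and Sesn3 at -1.04. Sesn1 stands on both the p53 and the FoxO list. The largest fetal changes were Igfbp1, which binds insulin-like growth factors, at 1.04, G6pc, the last enzyme of glucose output, at 0.88, the pyruvate dehydrogenase kinase Pdk4 at 0.75 and the ubiquitin ligase Fbxo32 at 0.61, with limma adjusted p from 0.00441 to 0.0398. Igfbp1 and G6pc had 0.23 and -0.49 in mothers, with differences of mother minus fetus of -0.81 and -1.37. The 2 maternal arrays disagreed in sign for Igfbp1, at 0.55 and -0.09, so its maternal mean rests on 1 dye orientation. For G6pc both maternal arrays gave -0.49.

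Of 11 Gadd45 partners and stress MAP kinases, 1 was higher and 0 lower in mothers (median 0.06), and 1 rose and 3 fell in the fetus (median -0.05). Map3k4, the kinase that Gadd45 proteins activate, had -0.51 in mothers and fell by 0.49 in the fetus (SD 0.04, limma adjusted p = 0.00616). Map2k3 and Mapk14 (p38 alpha), which act below it, fell by 0.28 and 0.21 in the fetus, and Mapk8 (JNK1) rose by 0.36 (limma adjusted p = 0.0318, 0.0322 and 0.0351). Map2k6, another kinase of p38, had 2.49 in mothers and 0.33 in the fetus, a difference of 2.17 (limma adjusted p = 0.0193).

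Of 13 transcription factors known to act on the members, 2 were higher and 1 lower in mothers (median 0.01), and 2 rose and 4 fell in the fetus (median 0.00). Cebpb and Myc were higher in mothers, by 1.91 and 1.69, and rose in the fetus by 0.29 and 0.60 (limma adjusted p = 0.0169 and 0.00482), with differences that passed the test (limma adjusted p = 0.00916 and 0.0127). The immediate early factor Egr1 had -0.91 in mothers and fell by 1.70 in the fetus (SD 0.97, limma adjusted p = 0.027). Cebpa, which holds hepatocytes out of the cycle, fell by 0.71 in the fetus (limma adjusted p = 0.0233). Its maternal mean was -0.07, but the 2 maternal arrays disagreed in sign, at -0.63 and 0.48, so no maternal direction can be read.

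**Figure D5:**
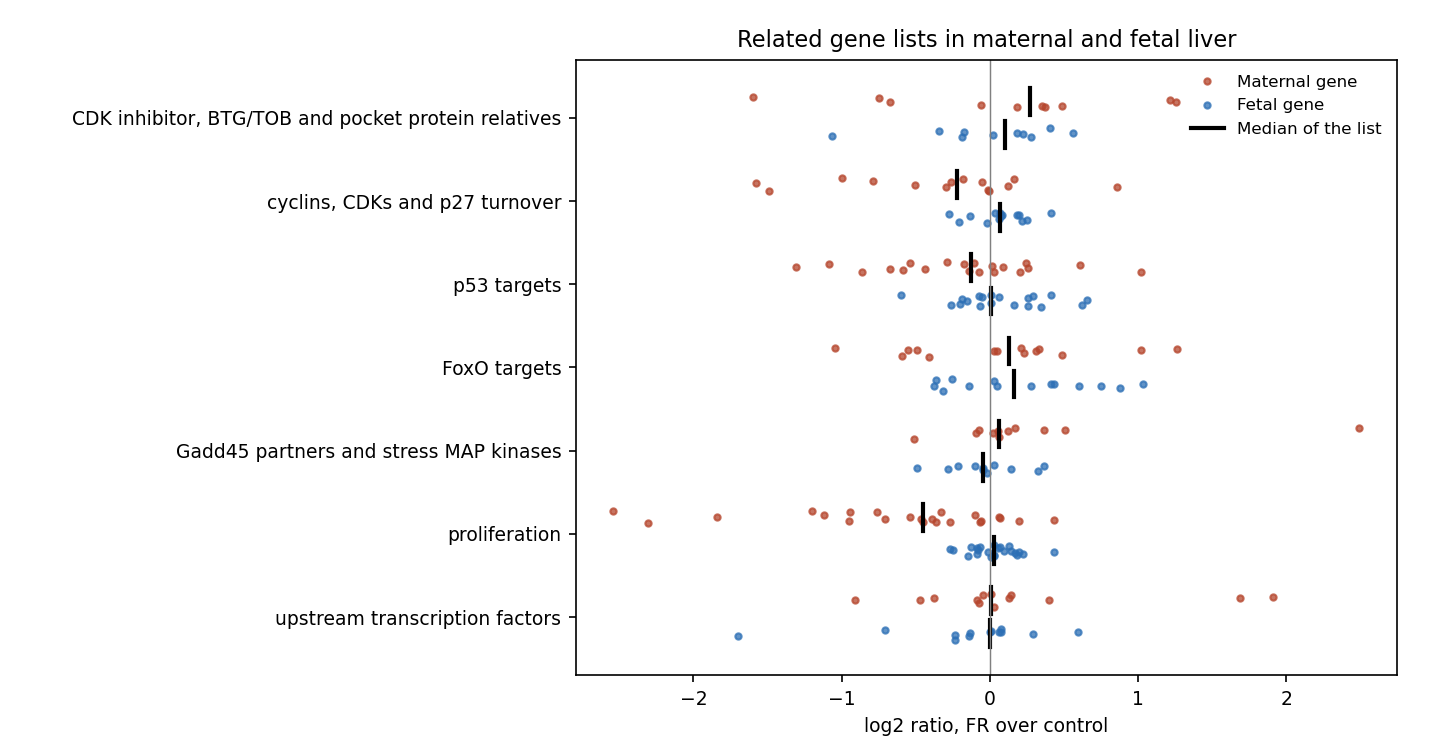
Log2 ratio of FR over control for each gene of 7 related lists, mothers (red) above fetuses (blue), with the list median as a black bar. The proliferation list has its maternal median at -0.45 and its fetal median at 0.03.

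Gadd45b had the largest mean absolute log2 ratio of the members over the 4 pool pairs, 0.92. Among 14700 other named genes, those nearest to it by Euclidean distance of the 4 ratios were H1f0 (0.33), Ntmt1 (0.46), Rgs1 (0.47), Cry2 (0.50) and Sbsn (0.50). Gadd45b had 0.96 in mothers and 1.10, 1.24 and 0.38 in fetal pairs 1, 2 and 3. H1f0, the linker histone of non-dividing cells, had 0.95 in mothers and 1.24, 1.34 and 0.67 in those fetal pairs. Cry2, a repressor of the circadian clock, had 1.33 in mothers and 0.99, 1.06 and 0.65 in the fetal pairs. The measure uses 4 points, 2 of which share slide 1 and 2 slide 2.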

How the data were processed

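The deposited scanner files give an intensity for each spot and dye, made per the file headers with Agilent Feature Extraction (version 9.5.3.1 on slide 1, which the submitters' processing notes name, and 11.0.1.1 on slide 2), with flags of 0 or 1. The deposited values are log10 ratios of red over green, not turned for the dye exchange, and equalled log10 of the scanner's processed signals within 5e-08. Descriptions of the arrays carry text on rat tissue and call the exchanged array another pool; the titles were followed.

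Spot means (medians on slide 2, whose files lack means) were background-corrected with normexp (offset 50) and normalized by loess in limma 3.58.1 under R 4.3.3, as log2 FR over control. Control and population outlier spots were left out, and non-uniform and saturated spots kept. Repeated spots were averaged, and then the dye exchange of each pool pair. A probe entered if well above background for the same diet on every array used, and a gene was read from its brightest such probe. The tests were limma's lmFit and eBayes with Benjamini-Hochberg adjustment over all 30812 (fetal) or 27476 (difference) probes. Levels are single-channel values after Aquantile normalization. The share of all genes whose FR and control fetal pools did not overlap was not counted. The number of arrays and, for the tests, of pool pairs limits the precision. Of the probes, 8357 could not be matched to a current symbol and kept the deposited name. The fits were also tested on simulated data with known changes.

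Every member is described. From each related list the text names up to 4 fetal genes by size past the threshold and up to 3 maternal genes of at least 1.5-fold on both arrays, and the 5 genes nearest to the member with the largest mean absolute ratio. Members and lists were chosen with earlier results of these data known. Probe coordinates are the mm9 positions of the slide 1 annotation, and exon positions were not used here. The array names held neither Irs2 nor Pck1. Sequences are RefSeq's; 10 of 10 members matched.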

Additional observations from a re-analysis of the deposited data

Results flagged for a closer look

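The response to FR differed between mother and fetus, by limma's test of the difference, for 3 members. The maternal minus fetal difference in log2 ratio was -0.81 for Cdkn1a, with -0.42 in mothers and 0.38 in fetuses. It was -1.46 for Gadd45a, with -0.86 in mothers and 0.60 in fetuses, and 1.91 for Gadd45g, with 1.79 in mothers and -0.13 in fetuses. The mothers are 1 pool pair, on slide 1, and on that slide alone the differences were -0.72, -1.43 and 1.75.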

How the results depend on the processing

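Directions of the called members held under each alternative that gave a value, and calls did not. The values given are the number of members higher and lower in mothers (3 and 1), higher in the fetus (6), and higher and lower for the difference of mother minus fetus (1 and 2), and the share of all probes called (6.36%, 25.2% and 3.18%). Without loess they were 1 and 0 and 1.69% in mothers, 1 and 14.9% in the fetus, and 1 and 0 and 0.997% for the difference, and the share of calls that were higher was 25.2% in the fetus, against 43.4%, and 60.2% for the difference, against 49.9%. With the deposited log ratios 2 members were lower in mothers (12.7% of probes), and 7.19% of probes passed for the difference. Without non-uniform spots 3 of 5 testable members rose in the fetus, with 0 higher and 1 lower for the difference (1.43%). Scaling between arrays gave 0 and 0% in the fetus by limma, with 11048 probes and 6 members at an unadjusted p below 0.05, and 0 and 0 and 0.466% for the difference. Leaving out 1 fetal pair gave 0 to 6 members and 3.43% to 22.3% in the fetus, and 0 to 1, 0 to 2 and 0% to 4.33% for the difference; the lowest values came without the pools of 6, where 9457 probes and 6 members in the fetus and 4523 probes and 6 members for the difference had an unadjusted p below 0.05 by limma, and without fetal pair 2 the fetal share was 11.3%. With slide as a fixed term, added after seeing the data, 2 members rose (10.8%), and slide as a random block could not be fitted. Median spot signals on both slides, also added then, moved no count by over 1.5 times. At 2-fold, 1 member was higher and 0 lower in mothers (2.04%). With FR in Cy5 alone 10.9% of probes passed, and with FR in Cy3 alone 10.4%, with 2 members lower. Btg2 in the fetus turned to -0.0565 without loess, -0.15 without non-uniform spots, -0.10 as the mean of probes and -0.0525 without fetal pair 2 (-0.0525 to 0.172 leaving out 1 pair). Cdkn1b turned to -0.104, -0.122, -0.0934 and -0.0274, and to -0.0234 without the pools of 6 (-0.0274 to 0.172). The Gadd45b difference turned to -0.14 as the mean of probes, -0.21 without fetal pair 3 (-0.21 to 0.22) and -0.14 on slide 1 alone. The causes of these shifts were not tested. The fits are paired by FR and control pool, since each tested value is the ratio within a pool pair. No paired analysis was possible between mother and fetus by replicate number because the maternal group holds 1 pool pair.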
